A study of Mus musculus with 2 samples.

Results

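The genes described here encode adipokines and batokines, the hormones and signalling proteins that fat cells and in particular brown fat cells release, together with the adiponectin receptors. They are 9 named genes, Adipoq, Cfd, Rarres2, Rbp4, Nampt, Adipor1, Adipor2, Vegfa and Nrg4, of 21853 protein-coding genes in the GENCODE M21 annotation. Peaks of lysine-specific demethylase 1 (LSD1) were taken within 1 kb of any protein-coding start of these genes, called promoter peaks below, and over the window from 50 kb upstream to 50 kb past each gene. The windows held 85 of the 59175 peaks of the list, and 10 of them were promoter peaks. Occupancy was measured by chromatin immunoprecipitation and sequencing in primary brown adipocytes of C57BL/6 N mice, passaged 2 to 3 times and differentiated for 10 days, with 1 library from an LSD1 precipitate made with a homemade antibody and 1 input library without antibody. Both libraries came from cells labelled as control genotype grown on collagen in 20% serum. The inducing mixture held the hormones insulin (850 nM), T3 (1 nM) and dexamethasone (1 µM), the phosphodiesterase inhibitor isobutylmethylxanthine (500 µM), and rosiglitazone (1 µM) with indomethacin (125 nM). Dexamethasone activates the glucocorticoid receptor and rosiglitazone activates the nuclear receptor PPARγ, so all values describe cells induced with a mixture that held those agents.

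LSD1 removes methyl groups from lysines of histone H3 and is recruited to chromatin with CoREST corepressor proteins rather than through a DNA motif of its own. Adipose tissue works as an endocrine organ: adiponectin acts on liver and muscle through its receptors, adipsin and chemerin link fat to the complement and immune systems, and brown fat adds factors that act on blood vessels, nerves and liver. A peak places LSD1 at a stretch of DNA and says nothing about whether the gene there is active. There were no replicates and no read counts, so no difference could be tested, the depth is unknown, and each value describes this library. Scores are those the authors deposited with the peaks, on a scale that no source used here gives. They serve to rank peaks within the list, whose median score was 111 (quartiles 86.7 and 193).

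All 9 genes carried a promoter peak, against a background of 55.8% of protein-coding genes (12199 of 21853). These 9 were chosen with earlier results of these data known, so the count describes them and not adipokine genes as a class. The highest promoter scores of the 9 genes ran from 76.0 at Adipoq to 829 at Cfd. The median was 284, against 315 over all genes with a promoter peak, an order that turned when a peak had to lie within 500 bp of a start (380, against 321). In order, Cfd (829), Vegfa (696), Nampt (636) and Adipor2 (477) had promoter peaks in the top 10% of the list, which began at a score of 391, and 22.8% of all protein-coding genes had such a peak. Nrg4 (284), Adipor1 (269.8), Rbp4 (135), Rarres2 (89.5) and Adipoq (76.0) followed. Without replicates it cannot be said which neighbours in this order differ. The genes thus shared a peak near a start, while the score there exceeded that of 1.3% of all genes with a promoter peak at Adipoq and of 87.9% at Cfd.

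The peak lay over a start itself in 6 of the 9 genes, Adipor1, Adipor2, Nampt, Rarres2, Vegfa and Nrg4, against a background of 47.8% of protein-coding genes. In Adipoq, Cfd and Rbp4 it lay downstream, with no annotated start under a peak. Of all genes with a promoter peak, 14.3% were of this second kind. The distance limit was passed by different margins: the promoter peaks began 503 bp from the start of Cfd and 549 bp from the nearer start of Adipoq, and for Rbp4 they lay 510 and 613 bp from 2 of its starts and 1033 and 1066 bp, outside the limit, from the other 2.

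**Figure D1:**
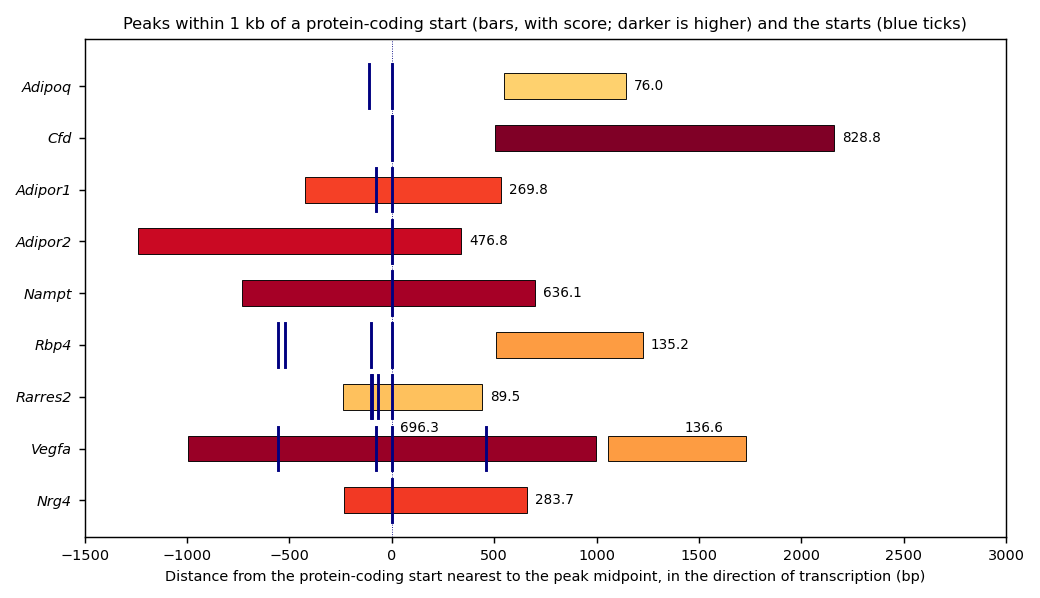
Position of the 10 promoter peaks, as bars with their scores, along the direction of transcription in bp from the start nearest to each peak's midpoint; blue ticks are annotated protein-coding starts, and starts farther than the axis (the outer starts of Adipor2 and the inner start of Nrg4) are not shown. The bars of Adipoq, Cfd and Rbp4 lie to the right of every start of the gene. Each of the other 6 genes has a bar over at least 1 start. The Vegfa bar with a score of 137 lies over none and to the right of every Vegfa start.

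Promoter CpG content separated the genes into a poor and a rich group. It was taken as the ratio of observed to expected CpG over 1 kb centred on a start, at the start of the gene where it was highest, and genes were ranked into deciles of this ratio. Adipoq (0.18), Rarres2 (0.18) and Cfd (0.14) were in decile 2, where 8.05% of 2185 genes carried a promoter peak. The other 6 were in deciles 7 to 10, from 0.76 for Rbp4 to 1.09 for Adipor2, where between 84.3% and 93.4% of genes carried one. The median over the 9 genes was 0.83, against 0.61 over all protein-coding genes. With the annotated gene start only, it was 0.49, a value between the poor and the rich group, so the separation depends on the start taken. A promoter peak was thus usual for genes like the 6 CpG-rich ones and infrequent among genes like the 3 CpG-poor ones.

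**Figure D2:**
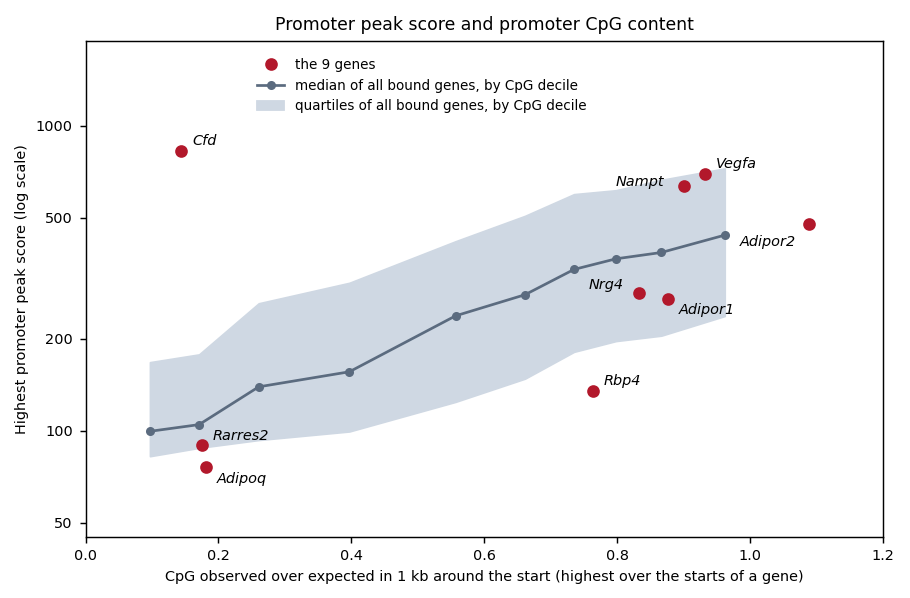
Highest promoter peak score (log axis, authors' value) against promoter CpG content for the 9 genes (red points), with the median (line) and quartiles (band) of all genes with a promoter peak in each CpG decile. Cfd, at a CpG ratio of 0.14 and a score of 829, lies far above the band of its decile, while Adipoq at 76.0 lies below it and Rarres2 at 89.5 within its lower part.

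The CpG-poor starts are shown here because they carry the contrast within the group: LSD1 covers the starts of Rarres2 and lies downstream of those of Adipoq and Cfd. Each sequence runs 5′ to 3′ on the gene's strand of GRCm38, from 250 bases before to 50 bases after the start unless another span is given, with every CG dinucleotide in capitals.
Adipoq start (chr16:23146286-23146585, plus strand): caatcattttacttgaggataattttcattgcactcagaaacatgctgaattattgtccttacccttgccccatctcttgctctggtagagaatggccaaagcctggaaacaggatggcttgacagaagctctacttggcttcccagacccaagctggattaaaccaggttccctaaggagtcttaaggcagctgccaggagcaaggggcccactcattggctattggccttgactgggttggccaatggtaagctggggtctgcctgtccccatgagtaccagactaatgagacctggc
Cfd start (chr10:79890603-79890902, plus strand): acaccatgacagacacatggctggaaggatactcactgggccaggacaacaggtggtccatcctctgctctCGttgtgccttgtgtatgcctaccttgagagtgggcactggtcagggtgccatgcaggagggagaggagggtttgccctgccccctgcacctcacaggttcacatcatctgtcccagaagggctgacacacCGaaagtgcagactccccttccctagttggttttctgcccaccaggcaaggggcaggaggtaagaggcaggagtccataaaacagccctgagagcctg
Cfd, 300 bases around the middle of its promoter peak (chr10:79892034-79892333, plus strand): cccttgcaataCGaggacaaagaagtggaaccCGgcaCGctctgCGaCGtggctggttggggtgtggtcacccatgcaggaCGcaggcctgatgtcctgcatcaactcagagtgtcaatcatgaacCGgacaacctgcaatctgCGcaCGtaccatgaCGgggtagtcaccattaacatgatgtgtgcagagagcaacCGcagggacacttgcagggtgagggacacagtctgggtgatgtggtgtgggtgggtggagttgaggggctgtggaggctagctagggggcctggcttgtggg
Rarres2 start (chr6:48572740-48573039, minus strand): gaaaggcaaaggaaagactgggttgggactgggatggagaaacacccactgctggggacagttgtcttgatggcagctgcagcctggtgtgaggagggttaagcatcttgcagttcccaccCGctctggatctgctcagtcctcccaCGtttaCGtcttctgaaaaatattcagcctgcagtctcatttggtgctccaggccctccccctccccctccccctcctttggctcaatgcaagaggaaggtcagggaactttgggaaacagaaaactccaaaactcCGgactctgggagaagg
The Adipoq window held 0 CG dinucleotides, the Cfd start 2 and the Rarres2 start 4, while the middle of the Cfd peak held 11.

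Adipoq encodes adiponectin, the hormone that sensitises liver and muscle to insulin and that only fat cells make in quantity. The gene (ENSMUSG00000022878.5, chromosome 16, 23146536–23158028, plus strand, 3 exons) had 9 peaks in its window. Its promoter peak at 23147195–23147791 was 597 bp wide, lay wholly in intron 1 and scored 76.0, a score exceeded by 94.3% of all peaks. A higher peak stood past the gene, at 23159580–23160378 (score 219, exceeded by 21.6% of all peaks), 1551 bp beyond the end and 13333 bp from the nearest Adipoq start. This peak was intergenic, and 2 more at 23161626–23162260 (score 87.1) and 23163599–23164187 (score 100.3) followed it, 3597 and 5570 bp past the end. Of the peaks with an Adipoq start as their nearest protein-coding start, the strongest therefore lay behind the gene and the weakest in its first intron. The highest upstream peak, at 23106527–23107770 (score 259), covered the start of Eif4a2, which encodes a translation initiation helicase.

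Cfd encodes adipsin, or complement factor D, a serine protease that fat cells secrete and that cleaves factor B in the alternative complement pathway. The gene (ENSMUSG00000061780.6, chromosome 10, 79890853–79892655, plus strand) is only 1803 bp long with 5 exons. Its peak at 79891356–79893013 was 1658 bp wide, scored 829 and was exceeded by 2.46% of all peaks. The peak began 503 bp inside the gene, ran over exons 2 to 5 with 722 coding bases, and ended 358 bp past the gene. It is a promoter peak only by its upstream edge, since its midpoint lay 1331 bp from the start. Among the 176 genes of CpG decile 2 with a promoter peak, whose median was 105, Cfd ranked 3, Rarres2 124 and Adipoq 168. The peak itself was richer in CpG than the start, with 57 CG dinucleotides and a ratio of 0.43.

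The Cfd window was the most crowded of the 9, with 18 peaks or 17.7 per 100 kb, more peaks than 95.8% of protein-coding genes had. Only the Cfd peak itself had the Cfd start as its nearest start; the other 17 were nearer to a neighbour. The highest were at 79932377–79934852 (score 1629), in an intron of Arid3a, a DNA-binding factor, and at 79852653–79855389 (score 1531), over the start of Ptbp1, a repressor of splicing. The upstream peak next to Cfd, at 79883388–79884866 (score 716), had its midpoint at -6726 bp from the Cfd start and 2120 bp from that of Elane, the neutrophil elastase gene.

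Rarres2 encodes chemerin, a chemoattractant for immune cells that fat also secretes as an adipokine. The gene (ENSMUSG00000009281.6, chromosome 6, 48569696–48572789, minus strand) carried a 679 bp peak at 48572248–48572926 over all 4 of its starts, with a score of 89.5 that 70.5% of all peaks exceeded. A peak at 48568400–48569021 lay 674 bp past its end and scored higher, at 170; its middle fell in a coding exon of the neighbour Lrrc61. The remaining 8 of 10 window peaks were nearer to other genes. Of these, 4 were in the top 10% of the list, over starts of Repin1 (922) and Zfp775 (424), both zinc finger genes, of Atp6v0e2 (502), a proton pump subunit, and of Lrrc61 (393). The chemerin start was thus a low-scoring site between high-scoring promoters of its neighbours.

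Rbp4 encodes the plasma carrier of retinol, which liver and fat release. The gene (ENSMUSG00000024990.13, chromosome 19, 38116629–38125281, minus strand) was the one with the fewest window peaks, 4, against a median of 5 over all protein-coding genes. Its promoter peak at 38123499–38124215 (717 bp, score 135) had its midpoint in intron 4 of the transcript with the longest coding sequence. The peak overlapped exon 4 of 6, with 107 coding bases. The score of 135 exceeded those of 17.0% of the genes with a promoter peak in the CpG decile of Rbp4, whose median was 338. Starts with CpG content like the 4 of Rbp4 were under a peak in 74.6% of cases, whereas none of the 4 was. The other window peaks were a weak one over the start of Ffar4, a fatty acid receptor (81.9), one nearer to Ffar4 than to Rbp4 (106), and one in Pde6c, a photoreceptor phosphodiesterase (114).

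Nampt encodes the enzyme that limits NAD salvage from nicotinamide and that is also found outside cells under the name visfatin. The gene (ENSMUSG00000020572.8, chromosome 12, 32819545–32853349, plus strand) had a peak of 1430 bp at 32819603–32821032 centred 18 bp upstream of its protein-coding start, with a score of 636 that 4.4% of all peaks exceeded. No peak lay in the 50 kb upstream. Past the gene there were 6 peaks, all intergenic, with scores of 296 at 32856546–32857738, which is 3196 bp beyond the end, and then between 83.2 and 177. The nearest start of another protein-coding gene, Sypl, was 134346 bp from the 5′ end of Nampt, and 3 of the 6 peaks were nearer to it than to the Nampt start. The nearest annotated start of any kind to each of the 6 was that of the noncoding RNA Gm47948.

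Adipor1 and Adipor2 encode the receptors of adiponectin, membrane proteins of the PAQR family. Adipor1 (ENSMUSG00000026457.14, chromosome 1, 134415378–134433351, plus strand) had a peak at 134415032–134415990 (959 bp, score 269.8) over both of its starts and exon 1. Its score exceeded those of 35.7% of genes with a promoter peak in CpG decile 9. Weak peaks lay 2460 bp upstream of a start (76.6) and in intron 1 (85.2). In the rest of the window the highest were at the neighbour Cyb5r1, a reductase gene (169), and in Klhl12, a ubiquitin ligase adaptor (108).

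Adipor2 (ENSMUSG00000030168.13, chromosome 6, 119353150–119417704, minus strand) has protein-coding starts of different character, and the LSD1 peak marked one of them. Its promoter peak at 119388348–119389928 (1581 bp, score 477) covered the inner start at position 119388686, which has a CpG ratio of 1.09 and lies in intron 1 of the longest coding transcript. The outer starts at 119417475 and 119417704, with ratios of 0.27 and 0.33, had no peak within 1 kb, and the nearest edge was 4705 and 4934 bp away. That edge belonged to an intron 1 peak at 119412160–119412770 (score 224). Across the annotation, starts in the CpG decile of the inner start had a peak within 1 kb in 92.1% of cases and those in the decile of the outer starts in 22.7%. RefSeq's promoter table lists for Adipor2 a start at 119388734, 48 bp from the occupied inner start. The upstream window peaks, up to 236 at the start of the Wnt ligand gene Wnt5b, were all nearest to Wnt5b, and the 1 downstream peak was at Lrtm2 (111).

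Vegfa encodes the main growth factor of blood vessels, which brown fat releases to supply its dense vasculature. The gene (ENSMUSG00000023951.17, chromosome 17, 46016993–46032369, minus strand) carried a wide peak at 46030818–46032811 (1994 bp, score 696) over all 4 of its starts, exceeded by 3.67% of all peaks. A second promoter peak at 46030085–46030760 (676 bp, score 137) lay beside it in intron 1. Intron 2 held a peak at 46026990–46028064 with a score of 391, just inside the top 10% of the list. RefSeq's promoter table lists for Vegfa a start at 46032377, under the wide peak, and another at 46025163. The latter, 6193 bp from the nearest of the 4 starts, had no peak over it but had one within 1 kb. Vegfa had the largest number of peaks whose nearest coding start was its own, 11 of 13, and the nearest start of another coding gene, Mrps18a, was 78617 bp from its 5′ end. Upstream peaks stood 4166 bp (214), 5689 bp (103), 20944 bp (99.2) and 37767 bp (306) from the nearest start of the gene, and the higher of the 2 past its end scored 137. The upstream peak with a score of 306 lay in an intron of the noncoding RNA AC110562.2. The locus thus held a strong promoter peak and a spread of weaker ones on both sides and within the gene.

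Nrg4 encodes neuregulin 4, a ligand of ErbB receptors that brown fat secretes and that acts on liver. The gene (ENSMUSG00000032311.17, chromosome 9, 55220222–55326844, minus strand) carried a promoter peak at 55326088–55326981 (894 bp, score 284) over its outer start at 55326749, which has a CpG ratio of 0.83. The same peak covered the start of Tmem266, a membrane protein gene transcribed the other way, whose nearest start lies 69 bp from the 5′ end of Nrg4. The peak can therefore not be assigned to Nrg4 alone. The inner start at 55283625 (ratio 0.45), the one that RefSeq's promoter table lists, had no peak within 1 kb and none nearer than 27526 bp. Starts of that CpG decile had a peak within 1 kb in 46.6% of cases. The gene body held 4 weak intronic peaks, between 95.45 and 121, 1 of them nearer to Fbxo22 than to a start of Nrg4, and the window's downstream peak covered the start of Fbxo22 (146), a ubiquitin ligase subunit.

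The occupied starts of Adipor2 and Nrg4 and the unoccupied start of Nrg4 are shown here, again with CG dinucleotides in capitals, since the letters show the CpG content of an occupied start and, at Nrg4, how it differs between starts of 1 gene.
Adipor2 inner start, under a peak (chr6:119388637-119388936, minus strand): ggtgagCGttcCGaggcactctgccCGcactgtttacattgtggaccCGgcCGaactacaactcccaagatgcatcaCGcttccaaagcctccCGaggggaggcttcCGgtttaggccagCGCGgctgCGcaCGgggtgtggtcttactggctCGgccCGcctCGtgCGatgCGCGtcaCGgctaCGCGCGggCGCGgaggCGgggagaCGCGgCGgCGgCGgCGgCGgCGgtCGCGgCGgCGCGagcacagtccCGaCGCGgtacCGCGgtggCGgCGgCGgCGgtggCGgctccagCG
Nrg4 outer start, under a peak (chr9:55326700-55326999, minus strand): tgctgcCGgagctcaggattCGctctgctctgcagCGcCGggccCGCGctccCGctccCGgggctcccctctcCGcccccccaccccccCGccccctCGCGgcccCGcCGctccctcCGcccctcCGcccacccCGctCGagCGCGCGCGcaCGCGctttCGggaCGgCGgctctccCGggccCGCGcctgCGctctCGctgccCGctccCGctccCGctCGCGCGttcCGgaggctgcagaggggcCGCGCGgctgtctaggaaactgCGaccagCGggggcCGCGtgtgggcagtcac
Nrg4 inner start, no peak within 1 kb (chr9:55283576-55283875, minus strand): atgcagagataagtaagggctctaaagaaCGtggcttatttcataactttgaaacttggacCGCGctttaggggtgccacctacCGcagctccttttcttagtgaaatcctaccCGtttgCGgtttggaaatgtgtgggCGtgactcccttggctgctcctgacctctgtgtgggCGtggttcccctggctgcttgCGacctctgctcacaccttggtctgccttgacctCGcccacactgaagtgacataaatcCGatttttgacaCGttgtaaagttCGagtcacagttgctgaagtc
The occupied starts of Adipor2 and Nrg4 held 49 and 46 CG dinucleotides, and the unoccupied start of Nrg4 held 13. Over all 9 genes, 13 of 23 annotated protein-coding starts were under a peak and 18 had one within 1 kb, against backgrounds of 41% and 52.3% of 54361 starts. Starts of 1 gene lie close together and often share a peak, so they are not independent. RefSeq's table matched 8 of the 9 genes with 11 starts, of which 5 were under a peak and 9 had a peak within 1 kb. The backgrounds above are for GENCODE starts. No share over all RefSeq starts is given here, so these RefSeq counts only describe the matched genes.

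**Figure D3:**
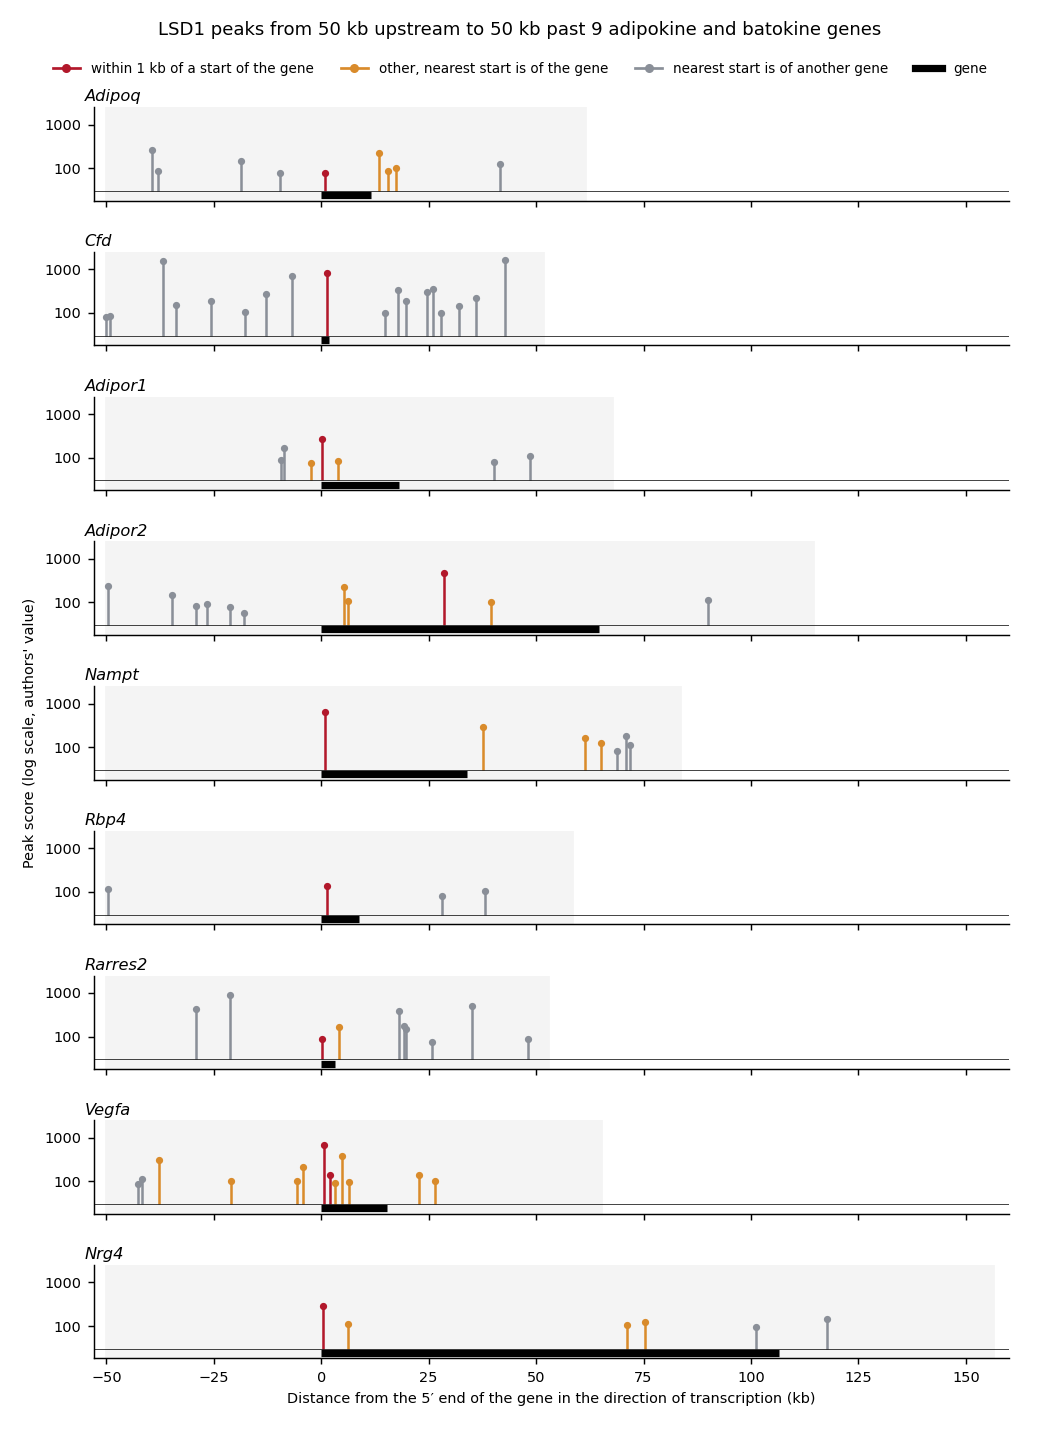
LSD1 peaks along the 9 windows, drawn at their midpoints with the score as height on a log axis; the x axis is the distance in kb from the 5′ end of each gene in the direction of transcription, the black bar is the gene and the grey area the window. Red peaks lie within 1 kb of a start of the gene, orange ones are other peaks nearest to it and grey ones are nearest to another gene, which is every peak but 1 at Cfd and 2 of 13 at Vegfa.

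Across the 85 window peaks, scores ran from 56.5 to 1629 with a median of 124, against 111 for the whole list, and the median width was 676 bp, against 628 bp. By midpoint, 28 lay within 1 kb of a protein-coding start of any gene, 27 in introns, 24 between genes, 4 in coding exons and 2 in other exons. Of the 85, 34 had a start of the gene itself as the nearest and 51 that of a neighbour. The 34 had a median score of 130 and the 51 one of 123. Of the 12 window peaks in the top 10% of the list, 4 were promoter peaks of the 9 genes, 7 were nearest to a neighbour and 1 was the intron 2 peak of Vegfa. High scores around these genes were thus in large part those of neighbouring genes, and the window says where peaks are, not which gene they act on.

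The number of window peaks per gene had a median of 9, against 5 (quartiles 2 and 9) over all protein-coding genes, of which 83.9% had at least 1. Over the 80 genes of the related lists described below, the median was 8, so a number above 5 was not particular to the 9 genes. By number, Cfd had 18, Vegfa 13, Adipor2 11, Rarres2 10, Adipoq 9, Adipor1 and Nampt 7 each, Nrg4 6 and Rbp4 4. Windows differ in length with the gene, from 102 kb at Cfd to 207 kb at Nrg4. Per 100 kb, the median was 6.68, against 3.54 over all genes, and Nrg4 with 2.9 was the only one of the 9 below that value.

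**Figure D4:**
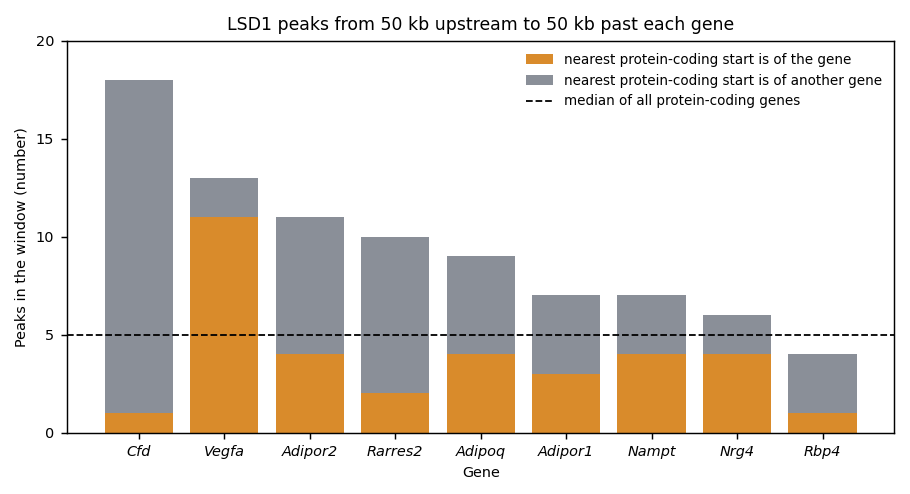
Number of LSD1 peaks from 50 kb upstream to 50 kb past each of the 9 genes, split by whether the nearest protein-coding start belongs to the gene (orange) or to another gene (grey), with the median of 5 over all protein-coding genes as a dashed line. Rbp4, with 4 peaks, is the one gene below the line, and the orange part is largest at Vegfa with 11.

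Short motifs were searched on both strands in the 300 bp around the midpoint of each peak. Of 14 motifs, those given here are the nuclear receptor half-site AGGTCA, its direct repeat with 1 base between the copies (which holds the half-site), the AP-1 motif TGANTCA, the C/EBP motif TTGCNNAA, the E-box CACGTG, the hypoxia response core ACGTG (also matched within the E-box), the GC box GGGCGG and the TATA box TATAAA. The others are the CRE core TGACGT, the ETS motif CCGGAA, the CCAAT box, the EBF motif CCCNNGGG, and the NFI and NRF1 palindromes. The GC box was in 4 of the 10 promoter peaks, at Adipor1, Nampt, Vegfa and Nrg4, against 49.4% of all promoter peaks. AGGTCA was in 2, at Nampt and in the intron 1 peak of Vegfa, against 12.6%. ACGTG was in 3, at Cfd, Nampt and Nrg4, against 22.2%. The E-box was in 1, at Nrg4, against 7.02%, and TTGCNNAA in 0, against 8.11%. TGANTCA was in 1, at Adipoq, against 5.62%, and TATAAA in 2, at Adipoq and in the intron 1 peak of Vegfa, against 5.89%. The CCAAT box was in 1 of the 10, against 29.3% of all promoter peaks, the EBF motif in 2, against 20%, and the ETS motif in 1, against 18.7%. The CRE core was in 0, against 6.92%, as were the NFI palindrome, against 0.0208%, and the NRF1 palindrome, against 1.11%. Over the 85 window peaks, AGGTCA was in 22.4%, against 17.9% of all peaks, the GC box in 25.9%, against 17.5%, the CCAAT box in 22.4%, against 32.2%, TGANTCA in 9.41%, against 13%, and the full direct repeat in 0, against 0.0862%. A match is a stretch of letters and not a binding site, and none of these shares was tested. With 4 of 10, the GC box was near the share of all promoter peaks. The window peaks and the whole list were not matched for their part of promoter peaks.

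Other genes of these pathways had promoter peaks in 58 of 80 cases, 72.5%, against the same background of 55.8%. The median CpG ratio over these 80 was 0.55, against 0.61 over all protein-coding genes. Shares of the lists were not compared at like CpG content. Proteins that fold adiponectin or carry its signal had a peak in 8 of 8 cases, led by Erp44 (1122) and Ero1l (856), which retain and oxidise adiponectin in the endoplasmic reticulum, and the chaperone gene Hspa5 (591). The NAD genes beside Nampt had one in 7 of 7, led by the adenylyltransferase Nmnat2 (1234), the kinase Nmrk1 (387) and the synthetase Nadsyn1 (325). Among PAQR relatives of the adiponectin receptors, 6 of 7 had one, led by Paqr3 (941), Paqr4 (902) and Paqr8 (668), and Paqr6 had none. Other batokines had one in 13 of 16, led by Metrnl (856), Gdf15 (733) and Fst (673), the genes of meteorin-like, of a stress hormone and of the activin antagonist follistatin, while Fgf21 and Ptgds had none.

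Other adipokines had one in 6 of 13. Among them were Sparc (354), the gene of a matrix protein, and Angptl4 (337), that of an inhibitor of lipoprotein lipase. The leptin gene Lep and the angiotensinogen gene Agt had none. The C1q/TNF-related proteins, relatives of adiponectin, had one in 4 of 9, led by C1qtnf3 (547), C1qtnf5 (538) and C1qtnf6 (372), with none at C1qtnf2 and C1qtnf4. Receptors and partners of the secreted factors had one in 9 of 13, led by Nrp1 (2288), a co-receptor of VEGFA, Erbb3 (1123), an ErbB receptor, and Flt1 (481), a VEGF receptor, with none at the chemerin receptor Gpr1 and the retinol receptor Stra6. VEGF and neuregulin relatives had one in 5 of 7, led by Nrg2 (920), Nrg3 (722) and Nrg1 (665), with none at Vegfd and Pgf. The median CpG ratio was 0.31 over the other adipokines and 0.37 over the C1q/TNF-related proteins, against 0.61 over all protein-coding genes. It was also low, at 0.38, over the receptors and partners, of which 69.2% had a promoter peak. Whether CpG content bears on these shares was not tested.

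**Figure D5:**
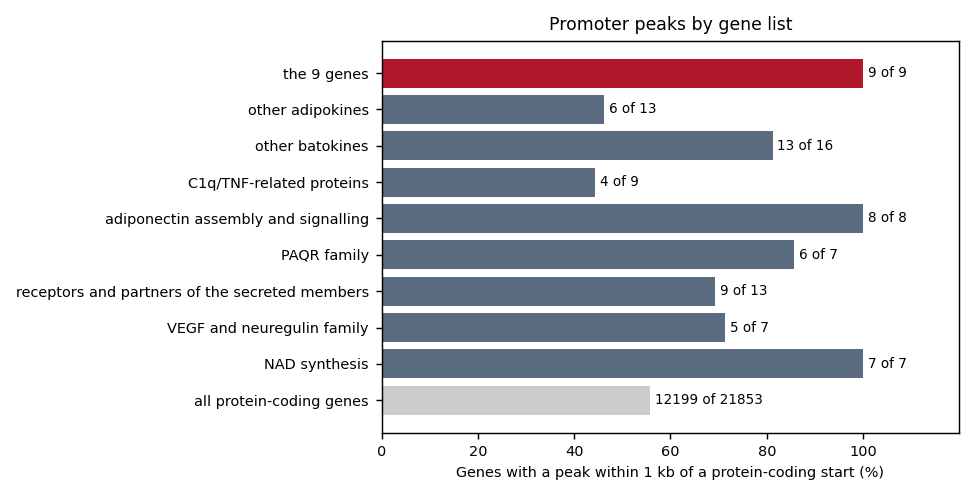
Percentage of genes with a promoter peak in the 9 genes, in the 8 lists of related genes and in all protein-coding genes, with the counts beside the bars. The share was 46.2% for other adipokines and 44.4% for C1q/TNF-related proteins, against 55.8% for all protein-coding genes, and above it for the other lists.

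Markers were read as occupancy only, since the list holds no expression. A promoter peak was present at 6 of 8 brown adipocyte markers (not at Ucp1 and Dio2), at 4 of 5 preadipocyte markers, at 3 of 5 endothelial markers and at 1 of 5 macrophage markers, against 55.8% of all protein-coding genes, so these data neither identify the cells nor measure other cell types among them. The part of other cell types in the peaks of the 9 genes was not tested.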

How the data were processed

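One LSD1 precipitate and 1 input library are labelled; the authors deposited 1 list of peaks with a score per peak, read here as a BED file with positions counted from 1. Per the labels' protocols, Bowtie2 placed the reads on mm10. The submitters' processing notes also list MACS, version 1.41. The peak threshold, the role of the input and the scale of the deposited score are not stated in any source used here. The depth is unknown. Cells were fixed for 5 min, per the series' design text. The genome was GRCm38.p6 and the annotation GENCODE M21; 0 peaks reached beyond a chromosome end. A promoter peak of a gene shares 1 bp or more with the stretch 1 kb to either side of a protein-coding transcript start. Exon and intron numbers refer to the transcript with the longest coding sequence. Members and gene lists were chosen with earlier results of these data known, as were the motifs. All 112 list entries matched the annotation. Described in full were the promoter peaks, the highest upstream, intragenic and downstream peak of each window and any in the top 10% of scores, and from each of the 8 lists of related genes the 3 top-scoring promoters and, in list order, the first 2 genes without a peak; 1 gene and 1 sequence under these rules are not reported here. Marker lists are given as counts, with the brown adipocyte markers lacking a peak named. No test between groups was possible with 1 library per group. The overlap code was tested on simulated peaks. Python 3.11.15, pandas 2.3.3 and samtools 1.23.1 were used. Alternatives were narrower and wider promoters and windows, midpoints, annotated gene starts and higher-scoring peaks only.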

Additional observations from a re-analysis of the deposited data

How the results depend on the processing

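No paired analysis was possible because each group has 1 library, and for the same reason no replicate could be left out. The count of 9 genes with a promoter peak depended on the definition: it was 6 with promoters of 500 bp, without Adipoq, Cfd and Rbp4, 8 with midpoints (without Cfd), 7 with the annotated gene start only (without Adipor2 and Rbp4), 7 with peaks above the list median only (without Adipoq and Rarres2) and 4 with the top 10%. The share of all protein-coding genes was 53.7%, 54.1%, 52.3%, 47.3% and 22.8% under these settings. The median promoter score of 284, below the 315 of all genes with a promoter peak, stayed below it with midpoints (277 against 313). The order turned with promoters of 500 bp (380 against 321), with peaks above the list median (477 against 378), with the top 10% (666 against 642) and with a peak required over the start (380 against 349.9), a definition chosen after seeing the data. The 85 window peaks became 34 with 10 kb on each side, 155 with 100 kb, 49 above the median score and 12 with the top 10%, and the median per gene, 9 against 5 over all genes, became 4 against 2, 16 against 9, 5 against 3 and 1 against 0. The 58 of 80 related genes became 23 with the top 10%. Median CpG content was 0.91 in 500 bp, against 0.68 over all genes, but 0.49 at the annotated gene start only, against 0.55, which turns the order. Shorter windows and fewer peaks lower counts by construction. Counts not given here stayed within 1.5 times of the reported ones, and medians not given here were equal to them.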

Other observations

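A peak within 5 kb past the annotated end stood at 4 of the 9 genes, Adipoq, Cfd, Nampt and Rarres2, against 22.5% of all protein-coding genes; this distance was chosen after the values were seen, and no test was made. Adipoq had 2 separate peaks there, with scores of 219 and 87.1, Nampt had 1 (296) and Rarres2 had 1 (170), and at Cfd it was the far end of the promoter peak. At Adipoq and Rarres2 each peak past the end scored higher than the promoter peak (76.0 and 89.5), and at Nampt lower (636). The 3 secreted factors of CpG decile 2 were all in this group of 4. No share over the genes of that decile is given here, so this describes those 3 genes only. Another value chosen after it was seen is a full NFI palindrome in the middle of 1 of the 85 window peaks, a motif in 0.0507% of all peaks. That peak, at 46073713–46074381 on chromosome 17 (score 115), lies in the Vegfa window, and its nearest protein-coding start is that of Mrps18a, 36939 bp away.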
